A study of Mus musculus with 24 samples.

Results

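The 8 genes described here encode transcription factors of the urogenital sinus epithelium from which prostatic buds grow: Foxa1, Foxa2, Sox9, Gata3, Trp63, Elf3, Klf5 and Ehf. They were followed in a series that set urogenital sinus RNA of mouse embryos exposed to androgen, and of male embryos, against RNA of their counterparts on 2-colour whole-genome arrays. Their probes were found by the gene name in the scanner files, which gave 15 probes of 41174. Of these, 14 gave signal often enough to be tested, among 35477 probes for 24717 genes. Sox9, Trp63 and Ehf had 3 probes each and Klf5 had 2, while the other genes had 1. Epcam, named Tacstd1 in the files, encodes an adhesion molecule of epithelial cells, and its single probe was read beside them as a measure of how much epithelial RNA a pool held.

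All embryos were C57/Bl6J, with no transgene or mutation named. Pregnant females received 50 mg/kg dihydrotestosterone (DHT), an androgen, at 16.0 days post conception (dpc), or vehicle, and the sinus of their embryos labelled female was taken after 6 h (4 pairs of pools) or 12 h (3 pairs). The vehicle pools are named "NoDrug" in the sample labels and vehicle in the treatment text. In the remaining 5 pairs, pools of untreated male embryos at 17.5 dpc were compared with pools of their female littermates. The treatment text gives this set a time of 48 h, although its embryos were untreated. Age, treatment and sex all differ between this set and the DHT sets. RNA of several embryos was pooled after the accessory ducts had been dissected away. Each pair of pools was hybridised on 2 arrays with the dyes exchanged, which makes 24 arrays and 12 pairs. The pair of pools is the replicate, and nothing in the labels says how many litters a pool held. Values are log2 ratios within a pair, DHT over vehicle or male over female, the mean of the 2 arrays, so that a positive value means more RNA in the DHT or male pool. Levels are log2 signals of 1 pool on 1 probe and are compared only within that probe.

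The urogenital sinus is an endodermal tube wrapped in mesenchyme. In males, androgen acts through receptors in the mesenchyme, and the epithelium answers by sending out solid buds that become the prostatic ducts. The forkhead proteins Foxa1 and Foxa2 open chromatin in endodermal epithelia, and Foxa1 is a partner of the androgen receptor in prostate cells. Sox9 marks the growing bud epithelium and is needed for prostate bud outgrowth in the mouse. Trp63 encodes p63, which basal epithelial cells need, and Gata3, Elf3, Klf5 and Ehf encode zinc-finger or ETS-type factors of epithelial differentiation.

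The reference table of promoters held windows for 4 of the 8 genes, from RefSeq on build GRCm38.p6. Gata3, Foxa1 and Elf3 are shown because their RNA was higher in male pools. Each line gives the 250 bases before the first start site, 5′ to 3′ on the minus strand, on which all 3 genes lie. The Gata3 window is chr2:9878601-9878850, that of Foxa1 chr12:57546112-57546361 and that of Elf3 chr1:135258473-135258722. Capitals mark a match to a searched motif.
Gata3: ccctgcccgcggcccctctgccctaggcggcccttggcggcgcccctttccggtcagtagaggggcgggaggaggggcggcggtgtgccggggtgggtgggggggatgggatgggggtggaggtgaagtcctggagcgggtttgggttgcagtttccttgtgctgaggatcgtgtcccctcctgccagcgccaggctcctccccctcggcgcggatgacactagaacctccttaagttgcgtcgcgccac
Foxa1: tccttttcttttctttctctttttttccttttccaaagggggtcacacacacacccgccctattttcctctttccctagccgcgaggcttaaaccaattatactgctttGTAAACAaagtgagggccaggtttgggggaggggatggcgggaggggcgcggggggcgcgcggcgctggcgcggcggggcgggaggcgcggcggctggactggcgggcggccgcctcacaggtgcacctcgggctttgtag
Elf3: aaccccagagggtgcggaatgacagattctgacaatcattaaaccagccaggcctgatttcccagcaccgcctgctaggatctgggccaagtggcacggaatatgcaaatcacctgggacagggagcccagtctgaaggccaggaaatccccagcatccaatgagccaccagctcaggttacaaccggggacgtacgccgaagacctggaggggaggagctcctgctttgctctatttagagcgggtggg
Motifs were searched on both strands of these windows. The androgen receptor half-site AGAACA, found in 16.1% of 32851 windows of the same length, and the palindromic androgen response element (0.00913% of windows), which contains the half-site, had no match in the windows of Gata3, Foxa1, Elf3 or Foxa2. The forkhead motif TGTTTAC (3.17% of windows) had 1 match, in the Foxa1 window on the opposite strand at bases −141 to −135 from the start, where the printed strand reads GTAAACA. The GATA motif AGATAA (9.99% of windows) had 1 match, before the third of 3 annotated starts of Foxa2, at bases −183 to −178. The SOX motif ACAATGG (3.02%) and the ETS motif CGGAAG (13.6%) had none in these windows. A match of letters is not a bound site, and a missing match says nothing about a factor. Sox9, Trp63, Klf5 and Ehf had no window in the table.

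Several facts of the whole series bear on the values. Median spot signals per array were 102.3 to 151.1 in Cy3 and 98.14 to 146.2 in Cy5. Each of the 3 comparisons was hybridised on its own date, per the labels, so differences in level between comparisons and differences of date cannot be told apart. The 3 vehicle pools of replicates 2 to 4 at 6 h, labelled female, carried Y-linked RNA: Eif2s3y, which lies on the Y chromosome, had levels of 8.66, 7.64 and 7.81, with 6.02 in the vehicle pool of replicate 1. The DHT pools at 6 h read 5.99 to 6.40, male pools 8.51 to 9.01 and female pools 5.98 to 6.36. Replicate 1 is therefore the one 6 h pair whose vehicle pool matched its label. Its own value is given beside each 6 h call that is named and each called difference from 6 h among the 8 genes. Taken alone, this pair has no spread between pools at 6 h. In replicate 2 at 6 h, hindgut markers had a mean log2 ratio of 0.558 over 8 genes, against at most 0.0355 in any other pair. The correlation across probes of the 2 arrays of a pair, which are not independent replicates, was −0.512 to −0.0776 at 6 h, −0.216 to 0.0902 at 12 h and 0.351 to 0.741 between the sexes. The sinus held both tissue layers: of 29 epithelial markers 28 to 29 were well above background in every pool, and of 15 fibroblast and mesenchyme markers 14 to 15.

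In sinus pools labelled female, Gata3 and Sox9 were lower after 6 h of DHT than after vehicle, and no member was higher. Every vehicle pool here except that of replicate 1 held RNA from the Y chromosome, so most pairs were not matched for sex. Within replicate 1, Gata3 read −0.56 and the 2 bright Sox9 probes −0.42 and −0.32. What part male tissue in the vehicle pools had in the 6 h ratios was not tested. Gata3, a zinc-finger factor, was lower in each of the 4 pairs, by 1.41-fold on average. Sox9 was lower in each pair on its 2 bright probes, and the dimmer of these passed the test. Epcam was lower in each pair as well, without passing. The comparison was fitted in limma over all probes with Benjamini-Hochberg adjustment, with 0.05 as the threshold. Of the 14 probes 0 were higher and 2 lower, beside 0.454% of all probes higher and 1.23% lower, and 4 of 14 had an unadjusted p under 0.05.

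**Figure D1:**
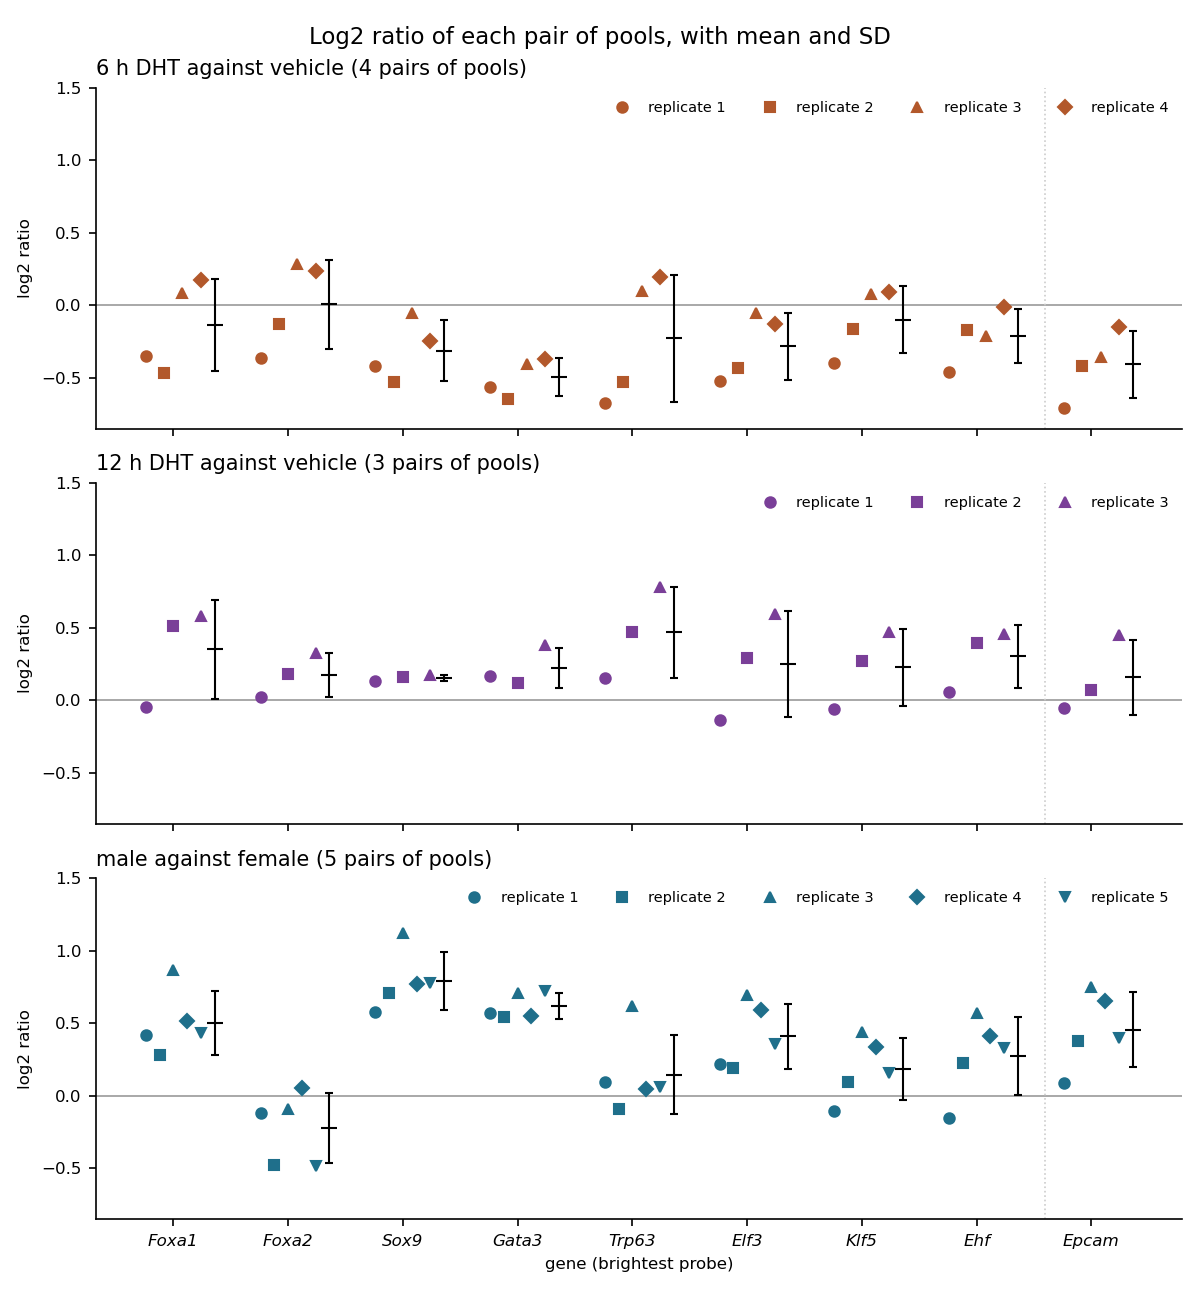
Log2 ratio of each pair of pools (points, shaped by replicate) for the brightest probe of the 8 genes and of Epcam, one panel per comparison, with the mean and SD as bars. Gata3 and Sox9 lie below 0 in all 4 pairs at 6 h and above 0 in all 5 male-female pairs, and Foxa2 lies below 0 in 4 of the 5.

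Gata3 had levels of 9.77, 9.70, 9.74 and 9.77 in the DHT pools of replicates 1 to 4, against 10.33, 10.34, 10.15 and 10.14 in the vehicle pools. The DHT pools lay close together and all below the lowest vehicle pool. The mean log2 ratio was −0.49 (SD 0.13, n = 4, SE 0.055, limma adjusted p = 0.00183), and the 2 arrays of a pair gave the same sign in 4 of 4 pairs. Replicate 1 alone gave −0.56, a single pair without a spread of its own.

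Sox9, the bud outgrowth factor, had levels on its second brightest probe of 8.02, 8.04, 7.96 and 8.07 in the DHT pools, against 8.34, 8.48, 8.25 and 8.23 in the vehicle pools. The groups did not overlap, and the mean log2 ratio was −0.31 (SD 0.12, n = 4, limma adjusted p = 0.0302). The brightest Sox9 probe read −0.42, −0.53, −0.05 and −0.25 in the 4 pairs, and its mean of −0.31 did not pass (SD 0.21, limma adjusted p = 0.0676). Both probes put Sox9 lower by 1.24-fold, and the brightest one varied more between pairs. In replicate 1 alone the 2 probes read −0.42 and −0.32. The call on the second probe was lost without replicate 1 (adjusted p = 0.181), without replicate 2 (adjusted p = 0.187) and without replicate 3 (adjusted p = 0.0861).

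The forkhead pair and p63 split the 4 pairs at 6 h. Foxa1 read −0.35 and −0.47 in replicates 1 and 2, and 0.09 and 0.18 in replicates 3 and 4 (mean −0.14, SD 0.32, limma adjusted p = 0.751). Foxa2 read −0.37, −0.13, 0.28 and 0.23 (mean 0.01, SD 0.31, limma adjusted p = 0.995). Trp63 read −0.67, −0.53, 0.10 and 0.19 on its bright probe (mean −0.23, SD 0.44, limma adjusted p = 0.577). In these 3 genes replicates 1 and 2 were negative and replicates 3 and 4 positive, so the means describe no single pair. The brightest probe of Klf5, given below, split the same way.

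On their brightest probes, the ETS factors and Klf5 were lowest in replicate 1. Elf3, an ETS factor of simple epithelia, read −0.53, −0.43, −0.05 and −0.13 (mean −0.28, SD 0.23, limma adjusted p = 0.264). Ehf, a related ETS factor, read −0.46, −0.17, −0.22 and −0.01 on its brightest probe (mean −0.21, SD 0.19, limma adjusted p = 0.375). Klf5, a Krüppel-like factor of proliferating epithelium, read −0.40, −0.17, 0.08 and 0.09 (mean −0.10, SD 0.23, limma adjusted p = 0.805). Elf3 and Ehf were negative in all 4 pairs without passing the test. In all, 6 of the 14 probes were lower in every 6 h pair, those of Gata3 and Elf3 and the 2 brightest of Sox9 and of Ehf, beside 11.9% of all probes. For 4 of the 14, those of Gata3 and Elf3 and the 2 bright ones of Sox9, all DHT pools lay below all vehicle pools, beside 4.37% of all probes.

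Epithelial markers read lower as well, their mean mainly in replicates 1 and 2. Epcam read −0.71, −0.42, −0.36 and −0.15 in replicates 1 to 4 (mean −0.41, SD 0.23, limma adjusted p = 0.0729), with levels of 8.77 to 9.05 in the DHT pools and 9.19 to 9.48 in the vehicle pools. The mean log2 ratio of the 29 epithelial markers was −0.481, −0.39, −0.0813 and −0.00213 in the same pairs, and all 29 were negative, of which limma called 0, while 15 had an unadjusted p below 0.05. Their log2 signals summed to 252.6 to 258.1 in the DHT pools and 258.1 to 266.6 in the vehicle pools. In bulk pools, fewer epithelial cells and less RNA per epithelial cell cannot be told apart. The part of epithelial share in the 6 h ratios of single genes was not tested beyond the values relative to Epcam given below.

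After 12 h of DHT no member passed the test, and nearly all read higher than in vehicle pools. Of the 14 probes 12 were positive, 0 were called in limma in either direction (0.0987% of all probes were called higher and 0.178% lower), and 6 had an unadjusted p under 0.05. Those 6 were the probes of Foxa1 and Gata3, the second brightest of Sox9 and of Klf5, and the brightest of Trp63 and of Ehf. The median over the 14 probes was 0.20, against 0.00062 over all probes. With 3 pairs, only 98 probes in all passed at 12 h, while 5326 had an unadjusted p under 0.05.

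Gata3 had levels of 11.38, 11.45 and 11.49 in the DHT pools of replicates 1 to 3, against 11.21, 11.32 and 11.11 in the vehicle pools. All 3 DHT pools lay above the highest vehicle pool, and the mean log2 ratio was 0.22 (SD 0.14, n = 3, limma adjusted p = 0.119). Sox9 had log2 ratios of 0.13, 0.16 and 0.17 on its brightest probe, with levels of 8.97 to 9.11 in the DHT pools and 8.84 to 8.94 in the vehicle pools. These groups did not overlap either, at a mean of 0.16 (SD 0.022, limma adjusted p = 0.468), and the second probe gave 0.22 (SD 0.051, limma adjusted p = 0.166). The third, dim Sox9 probe averaged −0.01 (SD 0.21, limma adjusted p = 0.982). In all, 7 of the 14 probes were higher in every 12 h pair, beside 16.3% of all probes. A further count concerns the pools themselves: 3.63% of probes had DHT pools wholly above vehicle pools at 12 h, and 4 of the 14 probes here did, those of Gata3 and the brightest of Sox9 and of Trp63, with the dim second probe of Klf5.

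The largest 12 h ratios among the 8 genes were those of Trp63 and Foxa1, and both varied between pairs. Trp63 read 0.15, 0.47 and 0.78 in replicates 1 to 3 (mean 0.47, SD 0.31, limma adjusted p = 0.197). Foxa1 read −0.04, 0.51 and 0.58 (mean 0.35, SD 0.34, limma adjusted p = 0.249), with levels of 7.76, 8.32 and 8.25 in the DHT pools and 7.80, 7.81 and 7.67 in the vehicle pools. Foxa1 was thus level with vehicle in replicate 1 and above it in the other two. Ehf averaged 0.30 (SD 0.22, limma adjusted p = 0.230), Elf3 0.25 (SD 0.37, limma adjusted p = 0.396), Klf5 0.23 (SD 0.27, limma adjusted p = 0.376) and Foxa2 0.18 (SD 0.15, limma adjusted p = 0.564). Replicate 1 was the lowest pair in each of Foxa1, Foxa2, Trp63, Elf3, Klf5, Ehf and Epcam.

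Epcam at 12 h read −0.05, 0.07 and 0.45 (mean 0.16, SD 0.26, limma adjusted p = 0.611). The epithelial marker mean was −0.0063, 0.232 and 0.522 in the same pairs, with 28 of 29 markers positive. Limma called 0 of them, and 12 had an unadjusted p below 0.05. Their summed log2 signals ran from 261.6 to 276.2 in the DHT pools and from 261 to 262.3 in the vehicle pools. The 10 skeletal muscle markers had means of −0.00792, 0.262 and 0.523 in the same 3 pairs. What part the makeup of the pools had in the 12 h ratios was not tested.

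In male embryos at 17.5 dpc, Sox9, Gata3, Foxa1 and Elf3 were higher than in female littermates, while Foxa2 did not pass. Sox9 differed most, by 1.73-fold on its brightest probe, with Gata3 at 1.53-fold, Foxa1 at 1.42-fold and Elf3 at 1.33-fold. The third Sox9 probe, a dim one, read 1.03-fold and did not pass (limma adjusted p = 0.827). Epcam was higher as well, by 1.37-fold. Of the 14 probes 5, belonging to those 4 genes, were higher and 0 lower in limma, beside 3.11% of all probes higher and 3.08% lower, and 7 of 14 had an unadjusted p under 0.05. Trp63, Klf5, Ehf and Foxa2 did not pass.

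**Figure D2:**
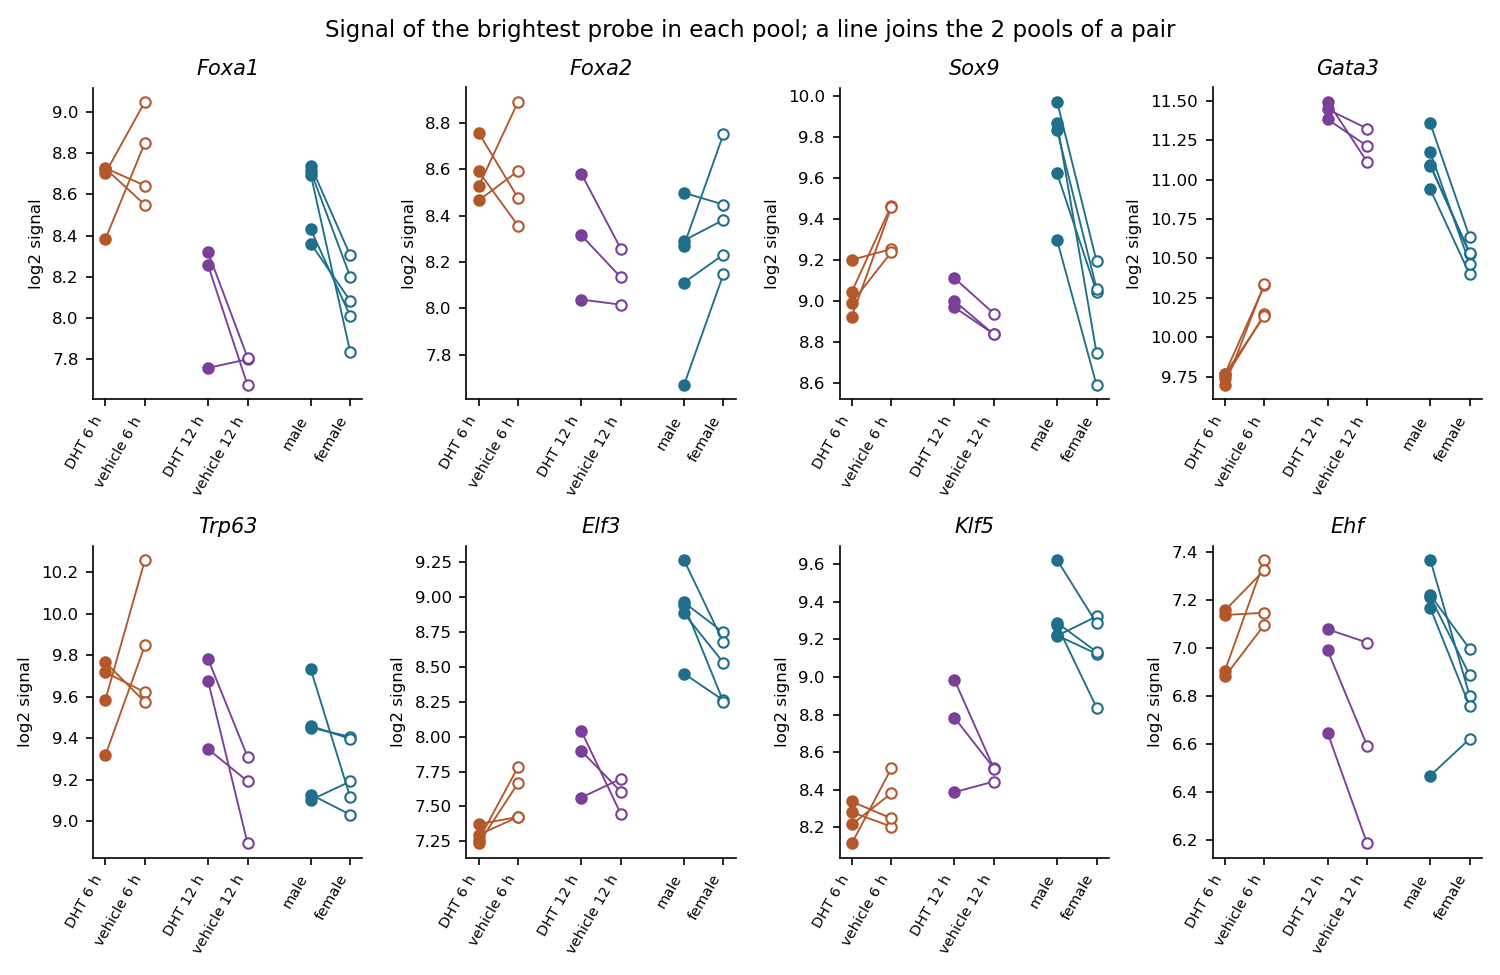
Log2 signal of the brightest probe in each pool (vertical axis, scaled per gene), DHT or male pools filled and vehicle or female pools open, with a line joining the 2 pools of a pair. All 5 male pools lie above all 5 female pools for Sox9, Gata3 and Foxa1, while for Foxa2 the male and female pools overlap.

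Sox9 had levels of 9.62, 9.30, 9.87, 9.83 and 9.97 in the male pools of replicates 1 to 5, against 9.05, 8.59, 8.75, 9.06 and 9.20 in the female pools. The lowest male pool lay above the highest female pool. The log2 ratio was highest in replicate 3 (1.12) and lowest in replicate 1 (0.58), and averaged 0.79 (SD 0.20, n = 5, SE 0.071, limma adjusted p = 1.26e-05). The second probe gave 0.76 (SD 0.18, limma adjusted p = 2.9e-06), also with all male pools above all female pools.

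Gata3 had levels of 11.09, 10.94, 11.17, 11.09 and 11.36 in the male pools, against 10.53, 10.40, 10.46, 10.54 and 10.63 in the female pools. Again no pools overlapped, and the log2 ratios were the most even of the 8 genes, between 0.54 and 0.72. Their mean was 0.62 (SD 0.090, n = 5, limma adjusted p = 4.73e-06).

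Foxa1 had levels of 8.43, 8.36, 8.70, 8.71 and 8.74 in the male pools, against 8.01, 8.08, 7.83, 8.20 and 8.30 in the female pools. The male pools all lay above the female pools, and the mean log2 ratio was 0.50 (SD 0.22, n = 5, limma adjusted p = 0.0119). In all, 5 of the 14 probes were higher in every male-female pair, those of Gata3, Foxa1 and Elf3 and the 2 bright ones of Sox9, beside 7.4% of all probes. Among all probes, 1.52% had male pools wholly above female pools, and 4 of the 14 here did, the 2 bright ones of Sox9 and those of Gata3 and Foxa1.

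Foxa2, the forkhead relative, read the other way. Its levels were 8.11, 7.67, 8.29, 8.50 and 8.27 in the male pools and 8.23, 8.15, 8.38, 8.45 and 8.75 in the female pools. The log2 ratio was negative in 4 of 5 pairs, at −0.12, −0.48, −0.09, 0.05 and −0.48 in replicates 1 to 5 (mean −0.22, SD 0.24, limma adjusted p = 0.246). The groups overlapped and the gene did not pass, and its value in replicate 1 rests on 1 array because the other spot was marked as an outlier. A test of the difference between the 2 forkhead genes was not made.

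Elf3 had levels of 8.96, 8.45, 8.95, 9.27 and 8.88 in the male pools, against 8.75, 8.26, 8.25, 8.68 and 8.53 in the female pools. Male and female pools overlapped, yet each male pool exceeded its own partner, with a mean log2 ratio of 0.41 (SD 0.23, n = 5, limma adjusted p = 0.0259). This call was lost without replicate 3 (adjusted p = 0.0883), without replicate 4 (adjusted p = 0.121) and without replicate 5 (adjusted p = 0.0530), and under 7 of 17 settings in all.

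The other 3 genes were less regular between the sexes. Ehf read −0.15, 0.23, 0.57, 0.41 and 0.33 (mean 0.28, SD 0.27, limma adjusted p = 0.1002). Klf5 read −0.10, 0.10, 0.44, 0.34 and 0.16 (mean 0.19, SD 0.21, limma adjusted p = 0.328). Both were lower in males in replicate 1 and highest in replicate 3. Trp63, the basal cell factor, read 0.10, −0.09, 0.62, 0.04 and 0.06 (mean 0.15, SD 0.27, limma adjusted p = 0.705), so that replicate 3 alone stood well above 0.

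Replicate 3 was also the highest pair for Foxa1, Sox9, Elf3 and Epcam. Epcam read 0.09, 0.38, 0.75, 0.66 and 0.40 in replicates 1 to 5 (mean 0.45, SD 0.26, limma adjusted p = 0.0104). Its call ended under 3 of 16 settings: without replicate 4 (adjusted p = 0.0586), with median centring and from the male-female pairs alone. The mean of the 29 epithelial markers was 0.0121, 0.246, 0.381, 0.319 and 0.151 in these pairs. Of the 29, limma called 13 higher and 2 lower, beside 3.11% and 3.08% of all probes. The log2 signals of the 29 summed to 273.8 to 284.3 in males and 269.4 to 275.1 in females. Skeletal muscle markers averaged 1.13 in replicate 3 and −0.357 to 0.237 in the others, and mesenchymal markers −0.486 to −0.0178. Of 10 Wolffian and Mullerian duct markers limma called 1 higher and 2 lower in males, beside 3.11% and 3.08% of all probes. The 3 were Amhr2, Wnt7a and Wnt9b, in order of the size of the difference and not of its direction. The median of the 10 was −0.0497, and these calls were kept under each of 17 settings. The part of pool makeup in single ratios was not tested beyond the values relative to Epcam.

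The change between the 3 comparisons was itself tested for the 14 probes. From 6 h to 12 h of DHT the ratio of Gata3 shifted upward by 0.72 (SE 0.083, limma adjusted p = 0.0153) and that of the second Sox9 probe by 0.53 (SE 0.097, limma adjusted p = 0.0483). These 2 of 14 probes stood beside 0.197% of all probes shifted upward and 0.062% downward, and the brightest Sox9 probe, at 0.47, did not pass (limma adjusted p = 0.1101). The third, dim Sox9 probe read −0.04 (limma adjusted p = 0.868). Epcam shifted by 0.57 without passing (limma adjusted p = 0.132). Epithelial markers moved with these shifts: all 29 were positive (median 0.452), limma called 0 of them, and 23 had an unadjusted p below 0.05. With the Epcam ratio as a covariate neither call was kept, at 0.56 for Gata3 (limma adjusted p = 0.199) and 0.34 for the second Sox9 probe (limma adjusted p = 0.315). With replicate 1 as the one 6 h pair, since the other 3 vehicle pools carried Y-linked RNA, they read 0.78 and 0.55. The Gata3 shift kept its call without replicates 1, 3 or 4 at 6 h and lost it without replicate 2 (adjusted p = 0.0722) or without any 1 of the 12 h pairs (adjusted p = 0.0688 to 0.102). The Sox9 shift lost it without any 1 of the 7 pairs (adjusted p = 0.0597 to 0.162).

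**Figure D3:**
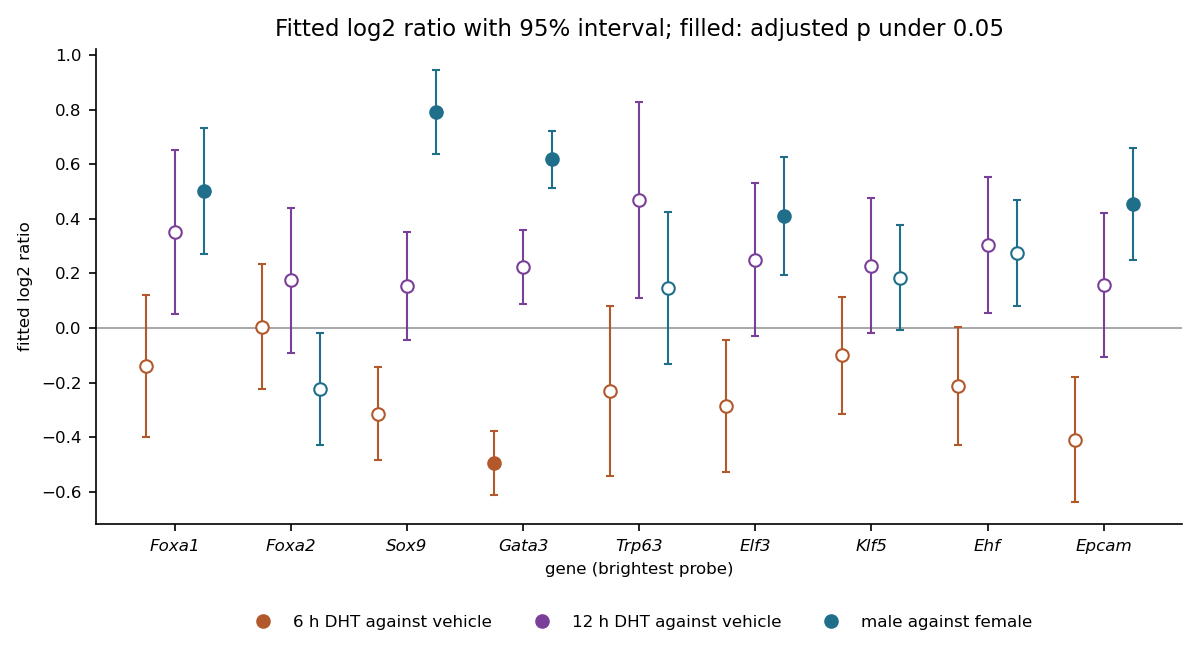
Fitted log2 ratio of the brightest probe of the 8 genes and of Epcam in the 3 comparisons, with 95% intervals, where filled points passed an adjusted p of 0.05 over all probes. Gata3 passed at 6 h below 0, no gene passed at 12 h, and Foxa1, Sox9, Gata3, Elf3 and Epcam passed above 0 in males.

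The male-female ratio exceeded the 12 h ratio in 3 of 14 probes, both bright Sox9 probes (0.64, limma adjusted p = 0.0165, and 0.54, adjusted p = 0.0125) and Gata3 (0.39, limma adjusted p = 0.0296), where 0.668% of all probes did so and 0.662% went the other way. All 3 calls ended without replicate 1 at 12 h (adjusted p = 0.0876, 0.0788 and 0.138). That of the brightest Sox9 probe also ended without replicate 2 (adjusted p = 0.0665) or 3 (adjusted p = 0.0620) at 12 h, that of the second without replicate 3 (adjusted p = 0.0530), and that of Gata3 without replicate 2 (adjusted p = 0.115) or without male-female replicate 5 (adjusted p = 0.0588). The male-female ratio exceeded the 6 h ratio in 5 of 14 probes (2.99% of all probes, with 2.67% the other way), by 1.10 and 1.06 in Sox9, 1.11 in Gata3, 0.69 in Elf3 (limma adjusted p = 0.0159) and 0.64 in Foxa1 (limma adjusted p = 0.0342). The Elf3 and Foxa1 differences were lost without replicate 1 (adjusted p = 0.0632 and 0.120) or replicate 2 (adjusted p = 0.0653 and 0.126) at 6 h. For Foxa1 the call also ended without male-female replicate 3, 4 or 5 (adjusted p = 0.0551 to 0.0698). With replicate 1 as the one 6 h pair, the differences read 1.18 in Gata3 and 1.21 and 1.08 in the bright Sox9 probes. Those of Elf3 and Foxa1 read 0.94 and 0.85. In the male-female minus 6 h difference 27 of 29 epithelial markers were positive (median 0.437), of which limma called 14. The 3 comparisons share no pools.

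Relative to Epcam in the same pair, the members spread out. Epcam itself moved further than the median of the 29 epithelial markers at 6 h (−0.41 against −0.204) and between the sexes (0.45 against 0.247). At 12 h it moved less (0.16 against 0.247). A value above or below Epcam is therefore not one above or below the epithelial markers together. Between the sexes the brightest Sox9 probe exceeded Epcam in 5 of 5 pairs, by 0.34 on the log2 scale (SD 0.14), and the second by 0.31 (SD 0.18). The third Sox9 probe exceeded it in 0 of 5 (mean −0.42, SD 0.22). Gata3 exceeded it in 3 of 5 pairs (mean 0.16, SD 0.24), Foxa1 in 3 of 5 (mean 0.05, SD 0.19) and Elf3 in 1 of 5 (mean −0.04, SD 0.11). These are descriptions of the 5 pairs with no test of their own.

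Below Epcam in all 5 male-female pairs lay Ehf (mean −0.18, SD 0.072), Klf5 (mean −0.27, SD 0.051) and Foxa2 (mean −0.68, SD 0.28), and Trp63 did so in 4 of 5 (mean −0.31, SD 0.25). The gap of Klf5 was the most even of the 8 genes, between −0.32 and −0.19. At 6 h Foxa2 (mean 0.41, SD 0.16), Klf5 (mean 0.31, SD 0.089) and Ehf (mean 0.20, SD 0.060) lay above Epcam in 4 of 4 pairs, where Epcam itself stood at −0.71 to −0.15. Gata3 lay above it in 1 of 4 (mean −0.09, SD 0.17), and the brightest Sox9 probe in 2 of 4 (mean 0.10, SD 0.23). The third Sox9 probe lay above it in 4 of 4 (mean 0.45, SD 0.23). At 12 h Trp63 (mean 0.31, SD 0.097), Foxa1 (mean 0.19, SD 0.22) and Ehf (mean 0.15, SD 0.16) lay above Epcam in 3 of 3 pairs.

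**Figure D4:**
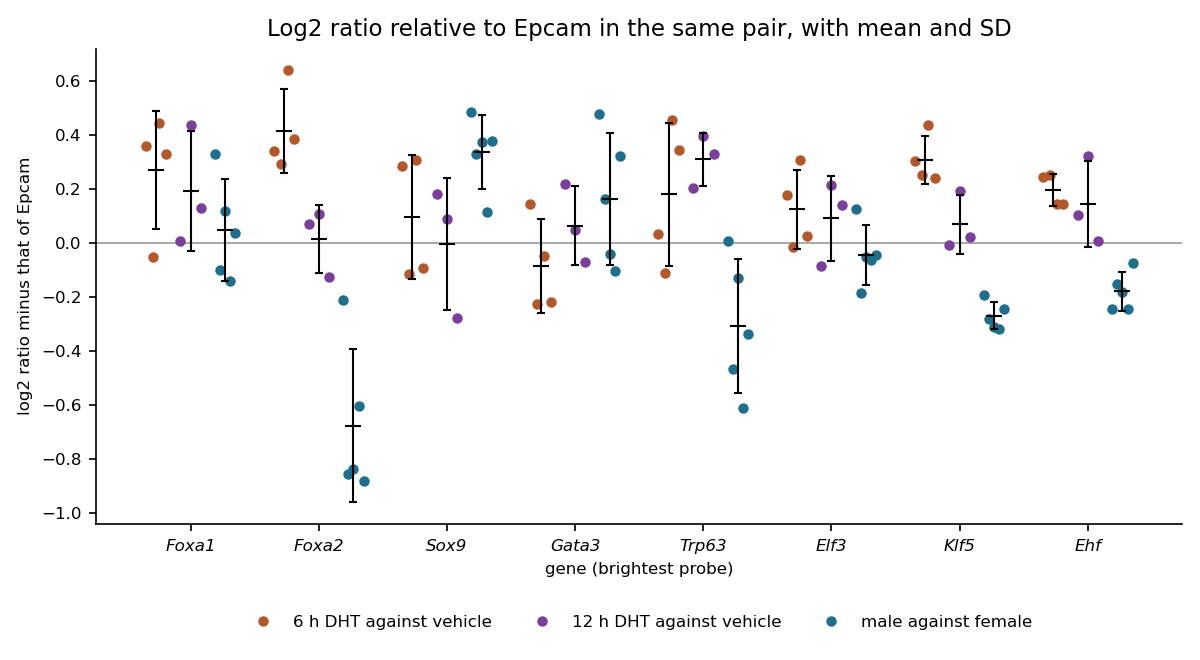
Log2 ratio of the brightest probe of each gene minus the log2 ratio of Epcam in the same pair (points, one per pair, coloured by comparison), with mean and SD. In the male-female pairs Sox9 lies above 0 in all 5 and Foxa2, Klf5 and Ehf below 0 in all 5.

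The Epcam ratio of each pair was also put in the fit as a covariate, read at an Epcam ratio of 0. Both bright Sox9 probes were still higher in males (0.59, limma adjusted p = 0.00862, and 0.61 on the second probe, adjusted p = 0.00228), as was Gata3 (0.49, adjusted p = 0.00368). The third Sox9 probe read −0.09 (limma adjusted p = 0.574). Foxa1 did not pass (0.14, limma adjusted p = 0.699) and Elf3 was at −0.01 (adjusted p = 0.986). Foxa2 was at −0.51 (limma adjusted p = 0.0905). Trp63 (−0.32), Klf5 (−0.21) and Ehf (−0.12), all positive and uncalled without the covariate, read negative and were not called with it. At 6 h Gata3 did not pass in that fit (−0.38, limma adjusted p = 0.126), and neither did Sox9, at −0.17 on its second probe (limma adjusted p = 0.447) and −0.13 on its brightest (limma adjusted p = 0.644). Of the differences from the male-female ratio, the second Sox9 probe kept its call against 12 h (0.44, limma adjusted p = 0.0412) and Gata3 its call against 6 h (0.87, limma adjusted p = 0.0210). Epcam is itself 1 probe with its own array error, and the fit spends 1 more term on 12 pairs.

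Probes of 1 gene did not always agree. The 2 bright Sox9 probes, of the same transcript accession, differed by at most 0.24 in any pair and by 0.03 on average between the sexes (SD 0.10). The third Sox9 probe, of that accession too, stayed between −0.18 and 0.23 in all 12 pairs and averaged 0.04 in males over females (SD 0.054, limma adjusted p = 0.827), 0.75 below the brightest one (SD 0.18). It was well above background in 48 of 48 channels, at log2 levels of 6.13 to 6.59. Its 2 arrays gave the same sign in 2 of 5 male-female pairs, against 5 of 5 for each bright probe. The probe sequences were not used here, so where the 3 probes lie in the transcript is not known.

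Trp63 had 1 bright probe and 2 dim ones. The second probe was well above background in 16 of 48 channels and read −0.04, 0.00 and 0.00 in the means of the 6 h, 12 h and male-female pairs, where the bright probe had −0.23, 0.47 and 0.15. The third probe was above background in 3 of 48 channels, carried the gene name only in the 6 h and 12 h files, and was not tested. Klf5 likewise had a second probe near background (32 of 48 channels), which was positive in 3 of 3 pairs at 12 h (mean 0.17, SD 0.080, limma adjusted p = 0.147) and had a mean of −0.05 between the sexes.

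The 3 Ehf probes were all above background in 48 of 48 channels and all dim. Their means between the sexes were 0.28, 0.12 and 0.01 from the brightest to the dimmest, and at 12 h 0.30, 0.14 and 0.04. In each of the 4 genes with several probes, the dimmest tested probe had the ratio nearest to 0 between the sexes. The part of signal over background in these disagreements was not tested.

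**Figure D5:**
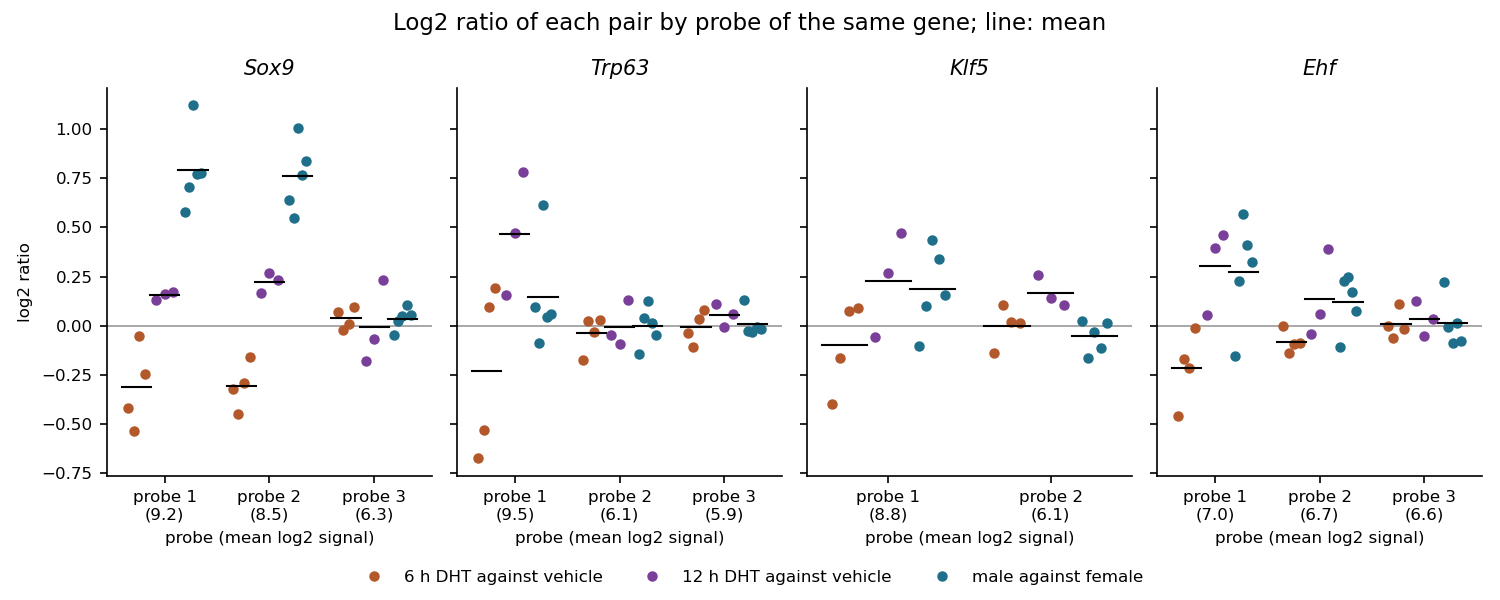
Log2 ratio of each pair by probe for the 4 genes with several probes, numbered from the brightest, with the mean log2 signal of each probe under its number and a line at the mean of each comparison. The 2 bright Sox9 probes track each other, and the third stays near 0.

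Across the 12 pairs the brightest probes of the members moved together to different degrees. The pairs of 1 comparison share a date, and 3 of the 4 at 6 h a Y-linked excess in the vehicle pool, so these values describe the 12 pairs and no more. Foxa1 and Elf3 had r = 0.959, Sox9 and Gata3 0.948, and Klf5 and Ehf 0.922, while Sox9 and Trp63 had 0.492 and Foxa2 had −0.278 with Sox9. With Epcam the r was 0.948 for Elf3, 0.914 for Ehf, 0.908 for Gata3, 0.896 for Sox9, 0.881 for Foxa1, 0.841 for Klf5, 0.672 for Trp63 and −0.0224 for Foxa2.

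Among 24675 genes with a value in all 12 pairs, the 3 genes with a symbol whose ratios were most like those of each member were taken by Pearson's r. For Gata3 they were Mkx (0.986), a homeobox gene of connective tissue, Col4a5 (0.985), a basement membrane collagen, and Pla2g4a (0.980). For Sox9 they were Cyp2f2 (0.969), Psca (0.968), a surface antigen of prostate and urothelium, and Nipal1 (0.966). Those of Foxa1 were Tmem40 (0.982), Ndufa7 (0.969) and Lrrc1 (0.969), and those of Elf3 Ly6g6e (0.980), Mpp7 (0.980) and Tmem40 (0.979). Trp63 was nearest to Nectin1 (0.961), an adhesion molecule, Rps19 (0.951) and Lypd3 (0.950). The genes nearest to Klf5 included Abcc3 (0.939) and Esrp1 (0.937), an epithelial splicing factor. Ehf was nearest to Tpd52 (0.962), Psmb2 (0.960) and Wwc1 (0.943). Foxa2 was nearest to Bcl3 (0.932), Ppp1r3g (0.903) and Katna1 (0.898).

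Related genes gave a frame for the 8. Of 28 other epithelial transcription factors 27 were tested, with 0 called at 6 h and 0 at 12 h in limma (2 and 6 below 0.05 before adjustment, medians −0.035 and 0.073). In males 4 were called higher and 0 lower (median 0.0343), beside 3.11% and 3.08% of all probes. The 4 included Tfap2c (0.28, limma adjusted p = 0.0215), Ets2 (0.23, adjusted p = 0.0401) and Hoxb13 (0.22, adjusted p = 0.00215), a homeobox gene of the caudal urogenital tract. The largest values at 6 h that did not pass were those of Sox2 (−0.28, limma adjusted p = 0.186) and Barx2 (−0.23, limma adjusted p = 0.789), which read −0.57 and −0.67 in replicate 1 alone.

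Of 15 close relatives of the members, such as Foxa3, Sox8 and Trp73, 4 of which (Gata2, Klf4, Elf5 and Spdef) are also among the factors above, 0 were called at 6 h or 12 h in limma (1 and 2 below 0.05 before adjustment). In males 0 were higher and 1 was lower, beside 3.11% and 3.08% of all probes. The lower one was Gata5 (−0.16, limma adjusted p = 0.0401), and the median of the list was 0.00584. Klf4 read −0.27 (limma adjusted p = 0.114) and Elf5 0.34 (limma adjusted p = 0.123).

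Of 21 epithelial signals and targets known to act with these factors, 8 were higher and 1 lower in males (median 0.129), beside 3.11% and 3.08% of all probes. Wnt4, a Wnt ligand, stood at 0.94 (limma adjusted p = 4.77e-06), Shh, the hedgehog ligand that bud epithelium sends to mesenchyme, at 0.60 (adjusted p = 0.000527), and Fgfr2, the receptor for mesenchymal Fgf10, at 0.46 (adjusted p = 0.000706). Col2a1, a collagen that Sox9 activates in cartilage, was lower at −0.41 (limma adjusted p = 0.0270). Lama5, Itgb4, Cdh3 and Bmp7 rose by 0.22 to 0.30. With Epcam as a covariate Wnt4 kept its call between the sexes, while the calls of Shh, Fgfr2, Col2a1, Lama5, Itgb4, Cdh3 and Bmp7, and of Tfap2c, Ets2, Hoxb13 and Gata5 above, were lost.

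At 6 h the list had 1 of 21 called in limma, the receptor gene Notch1, lower at −0.32 (adjusted p = 0.0180), and the median was −0.137. Of all probes 1.23% were called lower at 6 h. In replicate 1 alone Notch1 read −0.39. Its 6 h call was lost under 7 of 17 settings, among them the removal of replicate 1, 2 or 4. At 12 h limma called 0 of 21, of which 7 lay below 0.05 before adjustment, and the median was 0.163 with 17 positive. Between 6 h and 12 h the ratios of Shh (0.78, limma adjusted p = 0.0483) and Notch1 (0.51, adjusted p = 0.0483) shifted upward, alongside those of Gata3 and Sox9. Both calls were lost under 12 of 19 settings, including the Epcam covariate (limma adjusted p = 0.316 and 0.257). Among the others was replicate 1 as the one 6 h pair, which leaves no spread at 6 h. The removal of any 1 of the 12 h pairs, or of replicate 1 or 2 at 6 h, also ended both calls.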

How the data were processed

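RNA pools of the urogenital sinus were compared on 2-colour arrays, scanned with Agilent Feature Extraction 7.5.1, per the file headers. The deposited intensity values (mean signal and median local background) were corrected in limma 3.58.1 under R 4.3.3 (normexp, offset 50) and normalised within arrays by loess with controls unweighted. The authors' log10 ratio of Cy5 over Cy3 in those files and the deposited log2 series matrix, centred near 0 by an unstated method, served as alternatives. Outlier spots were left out, signs turned, and spots, then dye-swapped arrays, averaged. A probe was kept with 1 channel well above background on at least 6 of 24 arrays. The 12 pairs were fitted together, two-sided, adjusted over 35477 probes. Levels come from loess and Aquantile. Labels do not say that pools came from separate litters, so p-values measure the spread between pools. The number of arrays limits precision. The scripts were tested on simulated data. The genes, lists and alternatives were chosen with earlier results of these data known. Named list genes were those past the threshold (up to 4 by size, more where a count was spelled out), or otherwise the 2 largest. The counts and medians of gene lists cover all their tested members, and a few genes in them, or nearest to a member, are not reported here by name.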

Additional observations from a re-analysis of the deposited data

Results flagged for a closer look

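Among 30 sets of 4 or 5 pairs, where chance gives about 1 outlying value in 20, 1 pair stood apart. Male-female replicate 3 read 0.62 on the bright Trp63 probe, whereas the other 4 pairs lay between −0.09 and 0.10. The same pair had the highest ratios of Sox9, Foxa1 and Epcam and a skeletal muscle marker mean of 1.13.

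The response to DHT differed between 12 h and 6 h by a test of the difference itself for Gata3 (0.72, limma adjusted p = 0.0153) and for the second Sox9 probe (0.53, limma adjusted p = 0.0483). Both were lower than vehicle in all 4 pairs at 6 h and higher in all 3 at 12 h. In the same difference 29 of 29 epithelial markers were positive (median 0.452), and 3 of the 4 vehicle pools at 6 h carried Y-linked RNA. Neither call was kept with Epcam as a covariate (0.56, limma adjusted p = 0.199, and 0.34, limma adjusted p = 0.315). With replicate 1 as the one 6 h pair, the differences of Gata3 and the second Sox9 probe read 0.78 and 0.55.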

How the results depend on the processing

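The calls of Gata3 and of both bright Sox9 probes between the sexes were kept under each setting tried (17 for Gata3 and the brightest Sox9 probe, 16 for the second). Elf3 lost its male-female call under 7 of 17 and Foxa1 under 1 of 17, the Epcam covariate. Gata3 at 6 h lost its call under 2 of 17, the Epcam covariate and replicate 1 alone. The second Sox9 probe lost its call under 8 of 16 at 6 h and under 12 of 18 in 12 h minus 6 h, where Gata3 lost it under 7 of 19. Replicate 1 as the one 6 h pair in the differences was added after the data were seen. Fits with replicate 1 as the one 6 h pair have no spread between pools at 6 h. Their calls and counts rest on the spread of the other comparisons. Numbers below count all probes past the threshold, then probes of the 8 genes. At 6 h (599 and 2) they were 271 with median centring, 50 and 1 with the scanner's own ratio, 996 with the series matrix, 1920 with 24 arrays and a dye term, 1 and 0 with Epcam as covariate, 176 and 1 with the replicate block, 1323 with array weights, 312 and 1 from the 6 h pairs alone, 2 and 0 from replicate 1 alone, 1 among the brightest probes of the 8 genes, and 35 to 350 and 1 to 2 without one replicate (35 without replicate 1, 45 without replicate 2). At 12 h (98 and 0) they were 28 with median centring, 8 without background correction, 0 with the series matrix (4008 at an unadjusted p under 0.05 in limma), 172 with no filter, 18 with a strict filter, 543 and 1 with 24 arrays, 6 with the replicate block, 0 from the 12 h pairs alone (4454 unadjusted) and 0 to 0 without any one replicate (4369 to 4611 unadjusted). Between the sexes (2197 and 5) they were 3435 with 24 arrays, 533 and 3 with Epcam as covariate, 1017 from these pairs alone, and 1326 to 2121 and 4 to 6 without one replicate (1326 without replicate 4). For 12 h minus 6 h (92 and 2) they were 40 and 1 without background correction, 0 and 0 with the scanner's ratio (4026 unadjusted), 59 and 1 with the matrix, 28 and 1 with brightest probes, 991 and 6 with 24 arrays, 0 and 0 with Epcam as covariate (4467 unadjusted), 216 and 5 with the replicate block, 192 with array weights, 6 and 0 with replicate 1 as the one 6 h pair, and 0 to 48 and 0 to 1 without one replicate. For male-female minus 12 h (472 and 3) they were 0 of the 8 genes with median centring, 1164 with 24 arrays, 196 with the replicate block, 1 of the 8 genes with Epcam as covariate, and 127 to 476 and 0 to 3 without one replicate. For male-female minus 6 h (2010 and 5) they were 982 with median centring, 1210 with the scanner's ratio, 3587 with 24 arrays, 67 and 1 with Epcam as covariate, 95 and 3 with replicate 1 as the one 6 h pair, and 980 to 2191 and 3 to 6 without one replicate. With Epcam as covariate 3 values that had been called turned negative, Elf3 between the sexes (−0.0056) and Elf3 (−0.096) and Foxa1 (−0.054) in male-female minus 6 h. Counting uncalled values too, the sign changed in 8 of 14 probes at 6 h, 0 at 12 h, 6 between the sexes, 4 in 12 h minus 6 h, 5 in male-female minus 12 h and 7 in male-female minus 6 h. The cause of these shifts was not tested, apart from settings that use fewer pairs.

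Scaling moved the split of calls: 26.9% of 6 h calls were higher, against 3.32% with median centring, 8% with the scanner's ratio and 34.8% with the matrix. At 12 h 35.7% became 67.9% and between the sexes 50.3% became 38.9% with median centring. Equal replicate numbers did not pair samples (r of deviations −0.0615 to 0.272), so the replicate block is no paired test. Probes near background, such as the second of Trp63 and of Klf5, limit what can be read from their ratios.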

Other observations

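Genes of other cell types also differed. In males 4 of 10 smooth muscle markers were lower and 0 higher in limma (median −0.241), among them Myh11, a smooth muscle myosin (−0.47, limma adjusted p = 0.0210), and Myocd, an activator of smooth muscle genes (−0.38, limma adjusted p = 0.0102). Of 15 fibroblast and mesenchyme markers 6 were lower and 2 higher, the 2 being Srd5a2, which makes DHT from testosterone (0.46, limma adjusted p = 0.000552), and Fgf10, a growth factor for epithelium (0.20, limma adjusted p = 0.0175). Beside these counts, 3.11% of all probes were called higher and 3.08% lower in males. At 6 h of DHT 2 of 8 immune markers were higher, Adgre1 (0.36, limma adjusted p = 0.0347) and Ptprc (0.19, limma adjusted p = 0.0249), and all 8 were positive (median 0.156). Of all probes 0.454% were called higher at 6 h. In replicate 1, the one 6 h pair whose vehicle pool carried no Y-linked RNA above the female level, Adgre1 and Ptprc read 0.70 and 0.25. Their 6 h calls were lost under 8 and 11 of 17 settings. With Epcam as a covariate the calls named here for Myh11, Myocd, Srd5a2 and Fgf10 were lost as well.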
